A study of Mus musculus with 27 samples.

Results

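The 10 genes described here, Tes, Met, Capza2, St7, Wnt2, Asz1, Cttnbp2, Mdfic, Tfec and Foxp2, lie beside Cav1 on mouse chromosome 6. They were chosen by gene symbol from a read-count table of 55416 genes, and every one of the 10 had a row. Cav1 is the gene that is disrupted in the Cav1-null strain, B6.Cg-Cav1tm1Mls/J. The question was whether RNA levels of the genes around the disrupted locus differed between Cav1-null and the other strains in the fetal brain.

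RNA was sequenced from whole brains of female fetuses from 3 mouse strains (Cav1-null, AKR/J and C57BL/6J), taken at day 12, 15 or 17 of gestation (d12, d15, d17). Each strain and day had 3 libraries, 27 in all, prepared from polyadenylated RNA. All 3 strains came from the Jackson Laboratory, the parents were about 8 weeks old, and no group received a treatment. The labels name no Cav1 change in AKR/J or C57BL/6J, and Cav1-null carries the tm1Mls allele on a background named after C57BL/6. The labels do not say which fetuses shared a dam, so p-values measure the spread between these samples.

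As background, Cav1 encodes caveolin 1, the coat protein of caveolae, the small flask-shaped pits of the plasma membrane. The neighbours chosen here belong to unrelated families that include an actin-capping subunit, a growth factor receptor, a Wnt ligand and a forkhead transcription factor. A targeted allele moved from one mouse background to another by crossing usually brings along DNA of the donor strain on either side of it. Genes next to the target can therefore carry donor alleles, and whether they did so in these libraries was not tested.

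On GRCm39 the members lay on both sides of Cav1 (chr6:17306140-17341451, plus strand), with 0.12 to 1.86 Mb between each gene and Cav1. On the side of lower coordinates were Foxp2 (chr6:14901287-15441976, plus strand), Mdfic (chr6:15720487-15802248, plus strand), Tfec (chr6:16833372-16898440, minus strand) and Tes (chr6:17065144-17105827, plus strand). On the other side were Met (chr6:17463749-17573979, plus strand), Capza2 (chr6:17636233-17667148, plus strand) and St7 (chr6:17692932-17943024, plus strand). Farther out on that side were Wnt2 (chr6:17985468-18031892, minus strand), Asz1 (chr6:18050848-18109060, minus strand) and Cttnbp2 (chr6:18366477-18514842, minus strand). The positions cover whole genes, exons and introns together. The sources used here do not state whether counting used strand, and 10 gene models on the same strand and 5 on the other overlap St7, so its reads may be shared with them. For Tes, 2 gene models on the opposite strand overlap it, and Cttnbp2 is overlapped by 2 models on each strand.

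The targeted gene followed its labels. Cav1 had 0 to 16 reads in the 9 Cav1-null libraries and 182 to 1288 reads in the other 18 libraries, and the groups did not overlap on any day. Over the 3 days combined, Cav1 was lower in Cav1-null than in C57BL/6J (log2 fold change -6.92, SE 0.30, adjusted p = 9.48e-11). In this text log2 fold changes, standard errors (SE) and Benjamini-Hochberg adjusted p-values come from edgeR's quasi-likelihood test over all genes tested, a gene is called when its adjusted p is under 0.05, and CPM means counts per 1000000 counts of the library's total after TMM scaling, which corrects for a few abundant genes.

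Total counts per library were 26363697 to 39759702, and the C57BL/6J d15 libraries (37191332 to 39759702) were all deeper than the Cav1-null d15 libraries (26846313 to 29090743). The neural genes Tubb3, Dcx, Pax6, Sox2 and Fabp7 were detected in every library, the lowest at 37.5 CPM. The AKR/J d12 libraries stood apart: 10 erythroid genes, led by Hbb-y, summed to 34309 to 201667 CPM there against 565 to 18213 CPM in the other 24 libraries, and 10 neuron genes summed to 1908 to 2500 CPM, below all other libraries. Their TMM factors were 0.678, 1.04 and 0.675, so replicates 1 and 3 have CPM values well above their plain shares of the reads. Genes of pericytes and meninges (10 genes, each detected in every library) summed to 198 to 5271 CPM with single high libraries inside several groups. On d15 these genes summed to 477 to 5271 CPM in C57BL/6J and to 204 to 295 CPM in Cav1-null, and 10 endothelial genes to 254 to 353 against 96.5 to 120 CPM. The d15 groups of C57BL/6J and Cav1-null also did not overlap in the macroglia (438 to 513 against 205 to 232 CPM), erythroid (811 to 1070 against 2911 to 3609 CPM), neuron (6907 to 7607 against 6215 to 6266 CPM), radial glia (2075 to 2214 against 1627 to 1735 CPM) and microglia lists (56.6 to 87.8 against 39.0 to 43.1 CPM). The part of these lists in the d15 differences of the members was not tested. In whole-brain RNA, fewer cells of a type and less RNA per cell cannot be told apart.

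The C57BL/6J libraries also differed among themselves at genes that separated the other strains. Of 17 genes with at least 15 reads in every AKR/J library and at most 2 in every Cav1-null library, limits chosen after seeing the data, 16 were above 2 reads in some C57BL/6J libraries and not in others. One example on chromosome 6, Vmn1r43, had 0, 0 and 113 reads on d12, 104, 0 and 106 on d15, and 0, 0 and 54 on d17 in C57BL/6J. Of 9 genes with the opposite pattern, 6 were above 2 reads in all 9 C57BL/6J libraries, 2 in some and 1 in none. The cause was not tested, and no libraries were grouped by these genes. Comparisons of Cav1-null with AKR/J do not use the C57BL/6J libraries and are given beside those that do for each member.

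Scaled per kilobase of exon, the members covered a wide range of levels. Capza2 was highest, with a median of 37.2 CPM per kb over the 27 libraries (20.8 to 88.9), followed by Cttnbp2 at 17.5 (2.79 to 25.3) and Foxp2 at 7.34 (2.51 to 9.31). St7 at 3.81 (1.98 to 4.51) and Tes at 3.67 (2.79 to 5.27) overlapped, as did Mdfic at 1.21 (0.809 to 3.88) and Met at 0.83 (0.211 to 3.69). Tfec stood at 0.107 (0.0209 to 1.17) and Wnt2 at 0.0208 (0 to 0.145). Asz1 was at 0 in 24 of the 27 libraries.

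**Figure D1:**
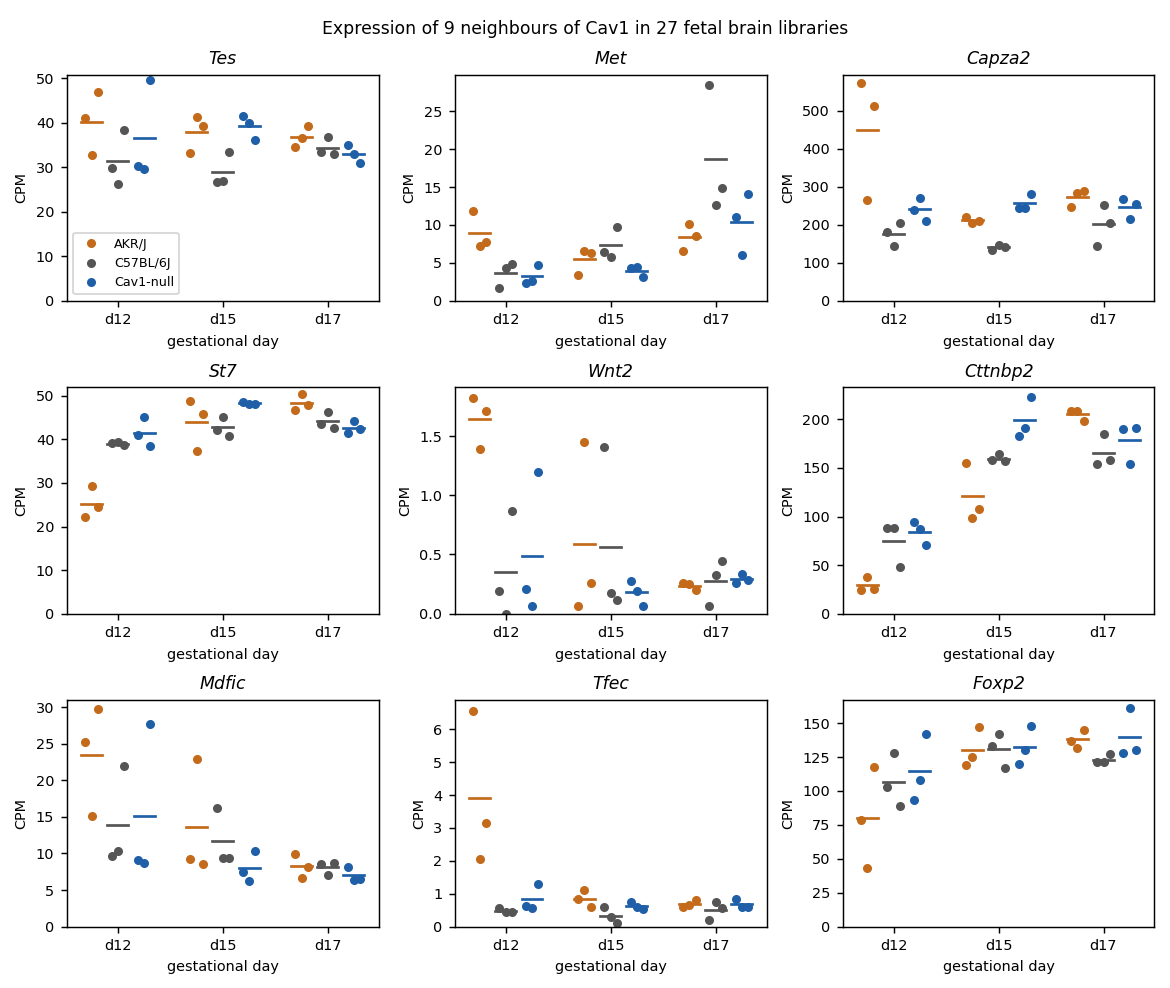
Expression of 9 of the 10 members (CPM, vertical axes) on d12, d15 and d17, with 1 point per library, 3 libraries per group and a line at each group mean; Asz1, at 0 in 24 libraries, is not drawn. Capza2 lies above C57BL/6J in all Cav1-null libraries of d12 and d15, and AKR/J d12 stands apart for St7, Cttnbp2 and Tfec.

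Capza2 was the member with the lowest adjusted p between Cav1-null and C57BL/6J on d15 and over the 3 days. It encodes an alpha subunit of the capping protein that binds the fast-growing ends of actin filaments. On d15, Cav1-null libraries had 245, 245 and 282 CPM and C57BL/6J libraries 134, 148 and 142 CPM. The groups did not overlap, and Capza2 was higher in Cav1-null (log2 fold change 0.90, SE 0.07, 1.87-fold, adjusted p = 1.86e-06). On d12 the values were 240, 271 and 211 CPM against 181, 145 and 204 CPM, again without overlap, but the difference was not called (log2 fold change 0.47). The d12 test against C57BL/6J did not call Cav1 itself either (log2 fold change -7.12, adjusted p = 0.0789). On d17 the values were 267, 215 and 256 CPM against 145, 252 and 206 CPM and overlapped (log2 fold change 0.33, not called). Over the 3 days combined Capza2 was higher in Cav1-null (log2 fold change 0.55, SE 0.11, adjusted p = 0.00107), and it passed in all 18 fits that left out 1 library.

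In AKR/J, Capza2 was nearer to Cav1-null than to C57BL/6J on d15 and d17. AKR/J libraries had 574, 266 and 513 CPM on d12, 222, 204 and 211 CPM on d15, and 247, 285 and 289 CPM on d17. On d15 Capza2 was higher in Cav1-null than in AKR/J (log2 fold change 0.31, SE 0.08, adjusted p = 0.0354), and the 3 Cav1-null libraries lay above the 3 AKR/J libraries. That call held in 1 of the 6 fits that left out a library, that without AKR/J d15 replicate 2, with adjusted p-values of 0.0412 to 0.104. On d12 the difference pointed the other way and was not called (log2 fold change -0.95, SE 0.30, adjusted p = 0.0579). Against C57BL/6J, AKR/J was itself higher over the 3 days (log2 fold change 0.79, SE 0.17, adjusted p = 0.00111), a comparison that shares the C57BL/6J libraries with the one above.

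Tes encodes testin, a LIM-domain protein of focal adhesions. On d15, Cav1-null libraries had 36.2 to 41.6 CPM and C57BL/6J libraries 26.6, 27.0 and 33.4 CPM, with no overlap, and Tes was higher in Cav1-null (log2 fold change 0.48, SE 0.10, adjusted p = 0.00192). On d12 the groups overlapped, at 30.3, 29.7 and 49.7 CPM in Cav1-null and 29.8, 26.3 and 38.3 CPM in C57BL/6J. They also overlapped on d17, at 35.0, 33.1 and 31.0 CPM against 33.4, 36.8 and 33.0 CPM. AKR/J libraries had 32.8 to 47.0 CPM over the 3 days, and Tes was not called between Cav1-null and AKR/J on any day. Tes was higher over the 3 days in AKR/J than in C57BL/6J (log2 fold change 0.28, SE 0.10, adjusted p = 0.026), and that call was lost with library sizes alone (adjusted p = 0.133) and with no filter on low counts (adjusted p = 0.0604).

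Cttnbp2, which encodes a cortactin-binding protein of neurons found at dendritic spines, was higher in Cav1-null than in AKR/J. On d12 the Cav1-null libraries had 94.3, 87.2 and 71.1 CPM and the AKR/J libraries 24.6, 37.7 and 25.4 CPM (log2 fold change 1.49, SE 0.21, 2.80-fold, adjusted p = 0.00335). On d15 they had 183, 191 and 223 CPM against 155, 98.9 and 108 CPM (log2 fold change 0.76, SE 0.16, adjusted p = 0.0132), a call lost without Cav1-null d15 replicate 3 (0.66, adjusted p = 0.0676). On both days the groups did not overlap. On d17 the order turned, with 190, 154 and 191 CPM in Cav1-null below 209, 209 and 198 CPM in AKR/J, and the difference was not called. The 3-day difference from AKR/J was called (log2 fold change 0.69, SE 0.19, adjusted p = 0.0171), and it was lost on d15 and d17 alone (log2 fold change 0.29, adjusted p = 0.227) and with a replicate block (0.70, adjusted p = 0.0656). Summed levels of the neuron genes, low in AKR/J d12, were 6215 to 6266 CPM for Cav1-null d15 and 4254 to 6423 CPM for AKR/J d15, and their part in the Cttnbp2 result was not tested.

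Against C57BL/6J, Cttnbp2 was higher in Cav1-null on d15, where C57BL/6J libraries had 158, 164 and 157 CPM (log2 fold change 0.36, SE 0.08, adjusted p = 0.00211). On d12 C57BL/6J had 87.8, 88.4 and 48.3 CPM and on d17 154, 185 and 158 CPM, both overlapping Cav1-null. Over the 3 days it was not called (log2 fold change 0.21, adjusted p = 0.12), but it was on d15 and d17 alone (0.28, adjusted p = 0.0371), with library sizes alone (0.32, adjusted p = 0.0188) and with at least 10 reads in every library (0.27, adjusted p = 0.0382).

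Cttnbp2 also differed in 1 splice junction, which was singled out after its values were seen and is given without a test. The junction joins chr6:18408481-18408500, the end of an exon, to chr6:18405243-18405262, the start of a later exon, and leaves out a coding exon of 96 bases between them (chr6:18406455-18406550, GRCm39, minus strand). It is not in the GENCODE vM39 annotation. Both stretches are shown to mark the exon and the join, and reads over junctions that include the exon are not given here. In the first, capitals mark the exon that is left out and lower case marks 10 intron bases on each side (chr6:18406445-18406560). In the second, lower case is the end of the exon before the junction and capitals the start of the exon after it.
Cttnbp2 exon left out: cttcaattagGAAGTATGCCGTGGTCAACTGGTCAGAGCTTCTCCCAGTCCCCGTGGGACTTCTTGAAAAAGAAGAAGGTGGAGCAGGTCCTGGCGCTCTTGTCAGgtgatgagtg
Cttnbp2 exons joined: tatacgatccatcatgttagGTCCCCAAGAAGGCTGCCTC

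The Cttnbp2 junction that leaves out the exon had 1, 4 and 0 reads on d12, 36, 28 and 18 on d15, and 55, 47 and 51 on d17 in AKR/J. In Cav1-null it had 0, 0 and 0 reads on d12, 3, 0 and 0 on d15, and 1, 1 and 1 on d17. C57BL/6J libraries were mixed, with 0, 13 and 0 reads on d12, 1, 0 and 19 on d15, and 19, 2 and 42 on d17. All AKR/J libraries of d15 and d17 were thus above all Cav1-null libraries, and C57BL/6J libraries lay at both levels within a group. A second, annotated junction of Cttnbp2 (intron chr6:18448469-18501947) had 52 to 108 reads in AKR/J, 73 to 137 in C57BL/6J and 96 to 127 in Cav1-null on those days. Per 100 reads of that annotated Cttnbp2 junction over d15 and d17, the exon-skipping junction had 47.3 reads in AKR/J (235 against 497), 13.5 in C57BL/6J (83 against 615) and 0.886 in Cav1-null (6 against 677). The annotated junction lies elsewhere in Cttnbp2, so the ratios are not shares of transcripts that lack the exon. With each library left out in turn, an alternative chosen after seeing the data, these Cttnbp2 ratios were 45.0 to 49.3 in AKR/J, 7.69 to 17.4 in C57BL/6J and 0.545 to 1.09 in Cav1-null. The lowest were without C57BL/6J d17 replicate 3, with 42 of the 83 reads, and without Cav1-null d15 replicate 1, with 3 of the 6. The authors removed reads from this table by several filters, so a 0 can stand for removed reads.

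**Figure D2:**
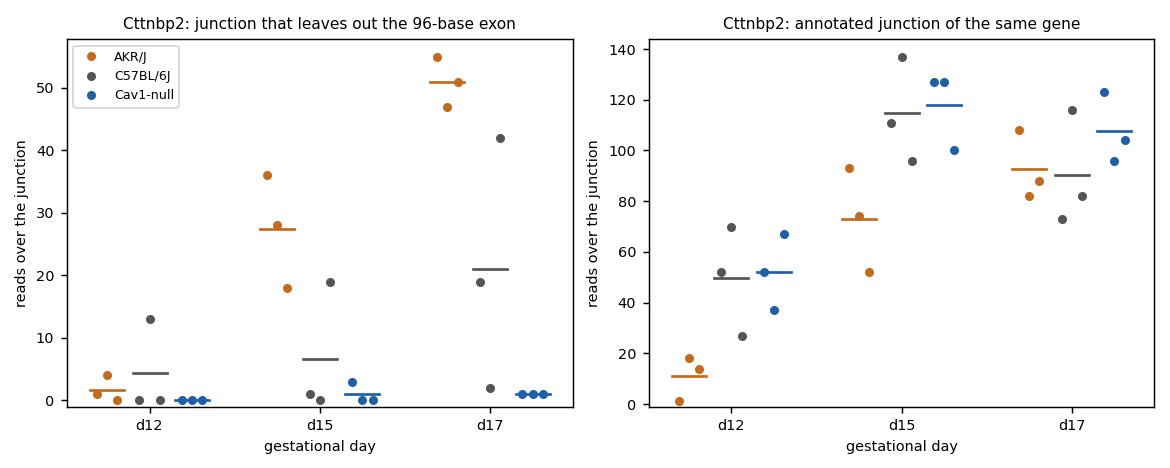
Reads over the Cttnbp2 junction that leaves out the 96-base exon (left) and over an annotated junction of the same gene (right) by gestational day, 1 point per library with a line at each group mean of 3. The left junction has 18 to 55 reads in AKR/J on d15 and d17 and 0 to 3 in Cav1-null, while C57BL/6J libraries spread from 0 to 42.

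Met encodes the receptor tyrosine kinase for hepatocyte growth factor. On d15, Cav1-null libraries had 4.33, 4.41 and 3.14 CPM and C57BL/6J libraries 6.42, 5.81 and 9.69 CPM, with no overlap, and Met was lower in Cav1-null (log2 fold change -0.84, SE 0.23, adjusted p = 0.00919). On d12 the values overlapped, at 2.36, 2.64 and 4.70 CPM against 1.63, 4.32 and 4.87 CPM. On d17 they were 11.1, 6.02 and 14.1 CPM against 28.5, 12.7 and 14.9 CPM, and the difference was not called (log2 fold change -0.78, SE 0.36, adjusted p = 0.575). Met was also lower over the 3 days combined (log2 fold change -0.61, SE 0.24, adjusted p = 0.046). That call was lost under RLE scaling (adjusted p = 0.0534), with library sizes alone (0.102), with at least 10 reads in every library (0.0589) and in 13 of 18 fits that left out a library, with an adjusted p of 0.122 without C57BL/6J d17 replicate 1, whose 28.5 CPM was the highest value of all 27.

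Met was lower in Cav1-null than in AKR/J on d12, where AKR/J libraries had 11.8, 7.21 and 7.77 CPM and the groups did not overlap (log2 fold change -1.49, SE 0.38, adjusted p = 0.0284). On d15 AKR/J had 3.44, 6.59 and 6.33 CPM and on d17 6.51, 10.1 and 8.59 CPM, both overlapping Cav1-null, and neither difference was called. The d12 call was lost in 4 of 6 fits that left out a library, all but those without AKR/J d12 replicate 2 or Cav1-null d12 replicate 3, and with library sizes alone (-1.01, adjusted p = 0.129).

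Wnt2, a secreted ligand of the Wnt pathway, was near the detection limit in most libraries. It had 44, 41 and 33 reads in AKR/J d12 and 6, 2 and 46 reads in Cav1-null d12. C57BL/6J d12 had 6, 0 and 27 reads. On d15 and d17 it had 2 to 52 reads per library, and the highest, 48 in AKR/J d15 and 52 in C57BL/6J d15, were in single libraries of their groups. No comparison called Wnt2 (Cav1-null against AKR/J on d12, log2 fold change -1.71, adjusted p = 0.196). The high Wnt2 libraries were also high in the pericyte and meninges genes, which summed to 1054 CPM in Cav1-null d12 replicate 3, 1197 CPM in AKR/J d15 replicate 2 and 5271 CPM in C57BL/6J d15 replicate 1. Not every library high in those genes had much Wnt2, as C57BL/6J d17 replicate 1 (1341 CPM) had 2 Wnt2 reads and C57BL/6J d12 replicate 2 (924 CPM) had 0. The part of those cells in the Wnt2 values was not tested.

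Foxp2 is a forkhead transcription factor expressed in developing neurons and known for its role in vocal and motor learning. Its values overlapped between Cav1-null and C57BL/6J on d12, at 93.5, 108 and 142 CPM against 103, 128 and 88.7 CPM. They also overlapped on d15, at 120, 130 and 148 CPM against 133, 142 and 117 CPM. On d17 Foxp2 had 128, 161 and 130 CPM in Cav1-null and 121, 121 and 127 CPM in C57BL/6J, just short of overlap and not called. AKR/J had 78.4, 43.4 and 118 CPM on d12, 119, 125 and 147 CPM on d15, and 137, 132 and 145 CPM on d17. Foxp2 was called in none of the comparisons between strains in the fits described. With library sizes alone it was called on d15 against C57BL/6J (0.24, adjusted p = 0.038). That scaling also called a change with the day in its difference from AKR/J (adjusted p = 0.0281).

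Tfec belongs to the MiT/TFE family of transcription factors. AKR/J d12 libraries had 6.56, 2.04 and 3.16 CPM, above the 0.633, 0.565 and 1.30 CPM of Cav1-null d12, and Tfec was lower in Cav1-null (log2 fold change -2.25, SE 0.57, 4.76-fold, adjusted p = 0.0275). The call was lost in the same 4 of 6 fits as that of Met and with library sizes alone (-1.70, adjusted p = 0.0702). All other libraries lay between 0.117 and 1.30 CPM. C57BL/6J libraries had 0.577, 0.432 and 0.451 CPM on d12, 0.596, 0.290 and 0.117 CPM on d15, and 0.206, 0.736 and 0.574 CPM on d17. The 3-day difference of Cav1-null from C57BL/6J was not called by edgeR (log2 fold change 0.70, SE 0.30, adjusted p = 0.0647). It was called by DESeq2 (0.73, adjusted p = 0.0379), with library sizes alone (0.80, adjusted p = 0.0453) and in 2 of 18 fits that left out a library. AKR/J was higher than C57BL/6J (log2 fold change 1.60, SE 0.42, adjusted p = 0.00448). On d15 and d17 alone Tfec was not called between AKR/J and C57BL/6J (0.89, adjusted p = 0.109). Within AKR/J d12, the library with the most Tfec, replicate 1, also had 903 CPM of the trophoblast and decidua genes and 1751 CPM of the yolk sac endoderm genes, against 63.7 to 91.8 CPM and 46.3 to 254 CPM in the other two. Of these lists, Cts7 and Apoc2 were at 0 in every library, and 1 and 6 of their 10 genes were detected in every library. Over the 27 libraries the most abundant were Dcn, also a pericyte and meninges gene, and Ttr, also a choroid plexus gene. The part of these lists in the Tfec values was not tested.

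Mdfic encodes a MyoD family inhibitor domain protein. It had 9.15, 8.66 and 27.7 CPM in Cav1-null d12, 9.61, 10.3 and 22.0 CPM in C57BL/6J d12, and 25.3, 15.2 and 29.8 CPM in AKR/J d12. From d15 on it lay between 6.22 and 23.0 CPM. By edgeR, Mdfic was called in none of the comparisons (Cav1-null against C57BL/6J on d15, log2 fold change -0.51, adjusted p = 0.105). That d15 difference was called by DESeq2 (-0.50, adjusted p = 0.0443), with no filter on low counts (-0.55, adjusted p = 0.0221) and without Cav1-null d15 replicate 3 (-0.73, adjusted p = 0.0418). Against AKR/J on d12, Mdfic was not called (log2 fold change -0.64, adjusted p = 0.387). Without Cav1-null d12 replicate 3, the d12 difference from AKR/J was called for Mdfic (log2 fold change -1.44, adjusted p = 0.0325) and for Wnt2 (log2 fold change -3.61, adjusted p = 0.0238). The other 5 fits that left out a library called neither gene, with values up to -0.34 for Mdfic and -1.19 for Wnt2. The Mdfic libraries above 20 CPM had 987 to 1197 CPM of the pericyte and meninges genes, which lay at 198 to 266 CPM in AKR/J d17. Other libraries high in those genes had less Mdfic, with 8.53 CPM in C57BL/6J d17 replicate 1 (1341 CPM of those genes), 10.3 CPM in C57BL/6J d12 replicate 2 (924 CPM) and 16.2 CPM in C57BL/6J d15 replicate 1 (5271 CPM). The part of those cells in the Mdfic values was not tested.

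**Figure D3:**
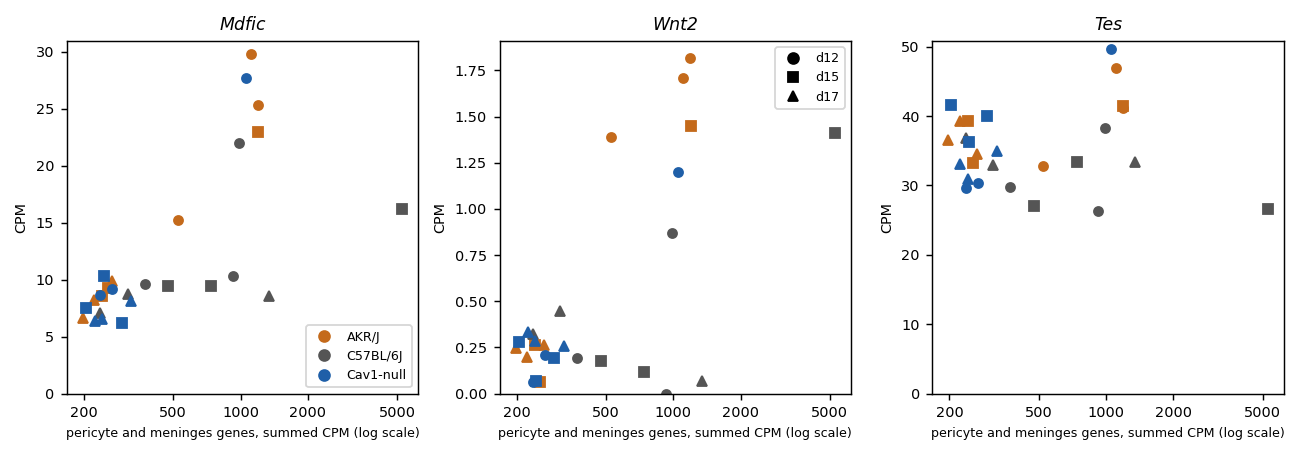
Mdfic, Wnt2 and Tes (CPM, vertical axes) against the summed CPM of 10 pericyte and meninges genes (log scale), 1 point per library, coloured by strain and shaped by day. The highest Mdfic and Wnt2 libraries lie above 500 CPM on the horizontal axis, whereas C57BL/6J d15 replicate 1, at 5271 CPM, has 26.6 CPM of Tes.

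St7 varied little outside AKR/J d12. In C57BL/6J it had 39.1, 39.3 and 38.6 CPM on d12, 42.2, 45.2 and 40.8 CPM on d15, and 43.5, 46.2 and 42.6 CPM on d17. In Cav1-null it had 40.9, 45.2 and 38.4 CPM, then 48.5, 48.2 and 48.1 CPM, then 41.5, 44.2 and 42.4 CPM. On d15 St7 was higher in Cav1-null than in C57BL/6J, with no overlap (log2 fold change 0.21, SE 0.06, adjusted p = 0.0148), a call lost with no filter on low counts (adjusted p = 0.0761) and without C57BL/6J d15 replicate 3 (0.17, adjusted p = 0.0706). AKR/J d12 had 22.2, 29.2 and 24.4 CPM, and Cav1-null was higher on that day (log2 fold change 0.68, SE 0.17, adjusted p = 0.026). AKR/J had 48.9, 37.4 and 45.9 CPM on d15 and 46.7, 50.5 and 47.9 CPM on d17. The d12 call was lost in 5 of 6 fits that left out a library, all but that without AKR/J d12 replicate 2.

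Asz1, a gene of germ cells that acts in the piRNA pathway, had 19 reads in all 27 libraries. AKR/J d12 replicates 1 and 2 had 14 and 4 reads, C57BL/6J d12 replicate 1 had 1, and the others had 0. A count of 0 allows up to 3 reads, or 0.0755 to 0.114 CPM before TMM scaling depending on the library, for counting error only. Asz1 passed the low-count filter in no comparison.

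Counted together, the members did not move as a block. Between Cav1-null and C57BL/6J on d15, 5 of 8 members tested were called, 4 higher (Capza2, Tes, Cttnbp2 and St7) and 1 lower (Met), where 58.6% of all genes tested were called, 26.8% higher and 31.8% lower. Their median log2 fold change was 0.29 against 0.03 over all genes tested. With all 27 libraries in 1 model, only 1 of the 5 calls remained, that of Capza2, while the log2 fold changes of the others were 0.44 for Tes, -0.89 for Met, 0.17 for St7 and 0.32 for Cttnbp2. On d12, 0 of 8 members and 0% of 19475 genes were called by edgeR, with 4309 genes at an unadjusted p under 0.05 and 2044 genes called by DESeq2. That edgeR test did not call Cav1 either (log2 fold change -7.12, adjusted p = 0.0789). A member not called on d12 is therefore not shown to be unchanged. On d17, 0 of 9 members were called and 0.0491% of all genes (0.00491% higher and 0.0442% lower), 10 by edgeR and 48 by DESeq2, with 1538 at an unadjusted p under 0.05. Over the 3 days combined, 2 of 9 members tested were called (Capza2 higher, Met lower) where 42.7% of all genes were (18.5% higher, 24.2% lower), with a median of 0.12 for the members and 0.05 for all genes.

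Against AKR/J on d12, 4 of 9 members tested were called (Cttnbp2 and St7 higher in Cav1-null, Met and Tfec lower), where 19.6% of all genes were called, 9.93% higher and 9.65% lower. On d15, 2 of 8 members were called (Capza2 and Cttnbp2, both higher) where 19.3% of all genes were called, 9.7% higher and 9.6% lower. On d17, 0 of 8 members were called at a background of 12.4% (6.67% higher, 5.73% lower), and 0 by DESeq2, which called 2944 genes. At an unadjusted p under 0.05 there were 5489 genes on that day. Over the 3 days, 1 of 9 members was called (Cttnbp2, higher) at a background of 19.9% (11.1% higher, 8.85% lower). Between AKR/J and C57BL/6J, 3 of 9 were called, all higher in AKR/J (Tes, Capza2 and Tfec), at a background of 44% (18.6% higher, 25.4% lower).

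**Figure D4:**
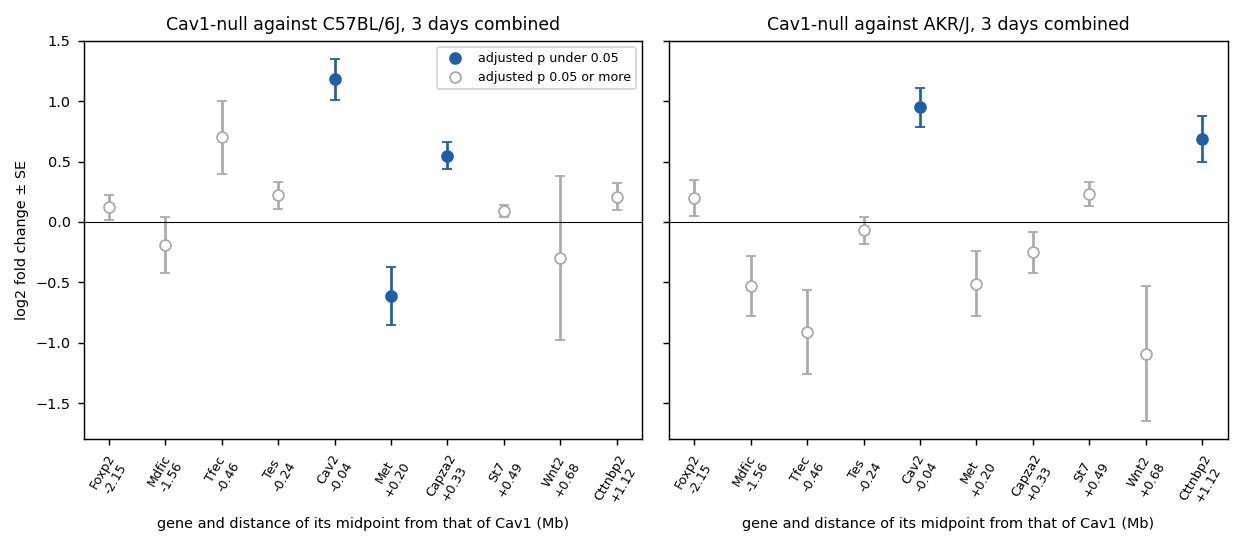
Log2 fold change with its SE for 9 members and Cav2 over the 3 days combined, Cav1-null against C57BL/6J (left) and against AKR/J (right), ordered along chromosome 6 by the distance of each midpoint from that of Cav1. Cav2 is called higher in both, whereas Capza2 and Met are called on the left alone and Cttnbp2 on the right alone.

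The strain difference changed with the day for 5 of 9 members between Cav1-null and AKR/J, at a background of 19.8%: Cttnbp2 (adjusted p = 0.000962), St7 (0.00421), Capza2 (0.0125), Tfec (0.0314) and Met (0.036). Each of these 5 had its largest difference from AKR/J on d12. Between Cav1-null and C57BL/6J the same test called 0 of 9 members and 0.00449% of all genes, 1 gene by edgeR and 360 by DESeq2, with 2941 at an unadjusted p under 0.05. The d15 differences of Capza2, Tes, Met, Cttnbp2 and St7 from C57BL/6J are therefore not shown to differ from those on d12 or d17.

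Cav2, the protein-coding gene next to Cav1, differed more from C57BL/6J than any of the 9 members tested did over the 3 days. Cav2, which encodes the caveolin 2 partner of caveolin 1, ranged from 14.3 to 30.6 CPM in Cav1-null, from 5.21 to 23.2 CPM in C57BL/6J and from 6.02 to 15.9 CPM in AKR/J. It was higher in Cav1-null than in C57BL/6J (log2 fold change 1.18, SE 0.17, adjusted p = 0.000206) and than in AKR/J (log2 fold change 0.95, SE 0.16, adjusted p = 0.000494). Gm15581, a long noncoding RNA gene on the minus strand across Cav2 and Cav1 (chr6:17206822-17385603), had 70 to 161 reads in Cav1-null and 0 to 2 reads in the other 18 libraries. Cftr, a chloride channel gene between Asz1 and Cttnbp2, was higher in Cav1-null than in C57BL/6J (log2 fold change 0.79, adjusted p = 0.0346) and than in AKR/J (1.44, adjusted p = 0.0145). Gm4876, a long noncoding RNA gene on the minus strand (chr6:17065009-17172213) that spans all of Tes on the opposite strand, was higher against both as well (0.82, adjusted p = 0.000577, and 0.50, adjusted p = 0.0275), and reads of Gm4876 and Tes may be shared. Farther out but within 10 Mb, Ndufa4 (0.80, adjusted p = 0.000878) and Ndufa5 (0.79, adjusted p = 0.000429), both coding for mitochondrial proteins, were higher in Cav1-null than in C57BL/6J. Against AKR/J their difference changed with the day (adjusted p = 0.000471 and 0.00168): Ndufa4 and Ndufa5 were lower in Cav1-null on d12 (-2.64, adjusted p = 0.00952, and -2.11, adjusted p = 0.0148), higher on d15 (0.56, adjusted p = 0.00108, and 0.56, adjusted p = 0.00303) and not called on d17 or over the 3 days. Over the 3 days both were higher in AKR/J than in C57BL/6J (1.52, adjusted p = 0.00285, and 1.35, adjusted p = 0.00261). Gm42583 (0.95, adjusted p = 0.00323) and 2610001J05Rik (0.72, adjusted p = 0.00164) were also higher than in C57BL/6J. Against AKR/J, Gm42583 was higher on d15 (1.21, adjusted p = 0.014) and d17 (0.80, adjusted p = 0.0413) and 2610001J05Rik on d15 (0.85, adjusted p = 0.00245), but neither was called over the 3 days (0.36, adjusted p = 0.403, and -0.02, adjusted p = 0.965), and both differences changed with the day (adjusted p = 0.00203 and 0.0034). In AKR/J, 2610001J05Rik was higher than in C57BL/6J (0.75, adjusted p = 0.0319). The pseudogene Rnps1-ps had 0 to 6 reads in Cav1-null, 350 to 626 in AKR/J and 4 to 806 in C57BL/6J, whose libraries were again uneven.

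Of genes other than Cav1 within 2 Mb of it, 19 genes other than Cav1 within 2 Mb of it were tested between Cav1-null and C57BL/6J over the 3 days, members among them, and 10 were called, 8 higher and 2 lower. Their median log2 fold change was 0.45, against 0.33 for 16 genes at 2 to 5 Mb, 0.16 for 29 genes at 5 to 10 Mb and 0.05 for 20950 genes on other chromosomes. The share called was 52.6% within 2 Mb, 56.2% at 2 to 5 Mb, 34.5% at 5 to 10 Mb and 43.1% on other chromosomes, so it did not fall steadily with distance. Between AKR/J and C57BL/6J, where the labels name no Cav1 change and the same C57BL/6J libraries enter, the medians were 0.25 within 2 Mb (6 of 18 called, all higher in AKR/J, or 33.3% where 44.4% of genes on other chromosomes were called), 0.26 at 2 to 5 Mb, 0.13 at 5 to 10 Mb and 0.00 on other chromosomes. Against AKR/J, 8 of 21 genes within 2 Mb were called, 7 higher and 1 lower, or 38.1% against 20% on other chromosomes, and their median was -0.03. That median differed by day. On d12 it was -0.17, with 9 of 19 called (4 higher and 5 lower), or 47.4% against 19.5% on other chromosomes. On d15 it was 0.45, with 5 of 16 called, all higher, or 31.2% against 19.3%. On d17 it was -0.08, with 6 of 18 called (5 higher and 1 lower), or 33.3% against 12.3%. At 2 to 5 Mb the d15 median was 0.22, and on other chromosomes it was -0.01. Against C57BL/6J the medians within 2 Mb were 0.32, 0.75 and 0.31 on the 3 days. The members thus held 2 of the 10 calls near Cav1 against C57BL/6J and 1 of the 8 against AKR/J. The nearest bins hold few genes, and no test was made of them.

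**Figure D5:**
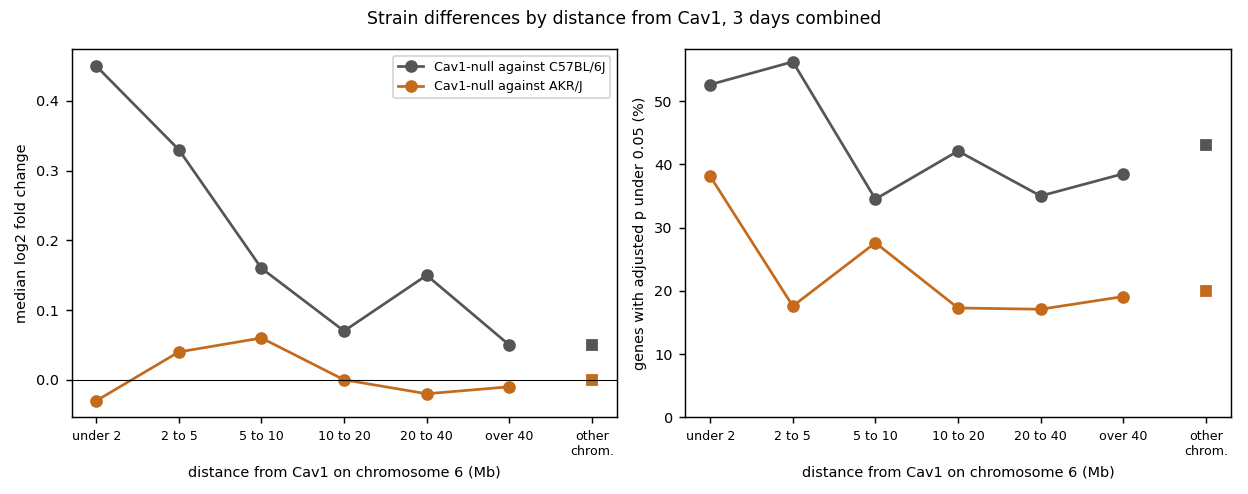
Median log2 fold change (left) and percent of tested genes with an adjusted p under 0.05 (right) by distance from Cav1 on chromosome 6, with genes on other chromosomes as squares, over the 3 days combined. Against C57BL/6J the median is 0.45 within 2 Mb, 0.07 at 10 to 20 Mb and 0.15 at 20 to 40 Mb, and against AKR/J it lies between -0.03 and 0.06 with the 3 days combined, whereas on d15 alone, not drawn, it is 0.45 within 2 Mb.

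Relatives of the members gave another view of the same comparisons, and Prickle2, Foxp1 and Mitf among them are also on chromosome 6. Of 14 paralogues, 9 were called between Cav1-null and C57BL/6J over the 3 days, 2 higher and 7 lower, with a median log2 fold change of -0.34, where 42.7% of all genes were called (18.5% higher, 24.2% lower). Between AKR/J and C57BL/6J, which shares the C57BL/6J libraries, 10 of the 14 were called, 2 higher and 8 lower, with a median of -0.40, at a background of 44% (18.6% higher, 25.4% lower). Capza1 (0.33), another alpha subunit of capping protein, was higher, as Capza2 was. St7l (0.27) was higher too, whereas St7 was not called (0.09). Capza1 and St7l were also higher in AKR/J than in C57BL/6J (0.39 and 0.23). Mst1r (-0.50), a receptor tyrosine kinase related to Met, was lower, as Met was. Foxp4 (-0.90, adjusted p = 0.000468) was lower, and lower in AKR/J than in C57BL/6J too (-0.80), whereas Foxp2 was not called (log2 fold change 0.12). The other called paralogues were lower: Cttnbp2nl (-0.38), Tfe3 (-0.70), Tfeb (-0.74), Prickle1 (-0.70) and Prickle2 (-0.56). Their relatives among the members, Cttnbp2 (0.21), Tfec (0.70) and Tes (0.22), pointed the other way and were not called. Against AKR/J, 0 of the 14 paralogues were called over the 3 days by edgeR at a background of 19.9%, with 4 at an unadjusted p under 0.05 and a median of -0.02. On d12, d15 and d17 taken singly, 2 of the 14 were called each time, at backgrounds of 19.6%, 19.3% and 12.4%. The difference from AKR/J changed with the day for Prickle2 (adjusted p = 0.00977) and Cttnbp2nl (0.0152), at a background of 19.8%.

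Genes whose pattern over the 27 libraries was most like that of a member are given as a description, since libraries share strain, day and depth. By Pearson's r of log2(CPM + 1), Capza2 was closest to Ufm1, Cibar1 and Eloc (each 0.99) and Cttnbp2 to Gpr21, Gm43843 and Cacna1e (each 0.98). Mdfic was closest to Dkk2 (0.95), Wnt2 to Copz2 and Cldn8 (0.91), and St7 to Ttc3 (0.95). Foxp2 was closest to Gm15663 (0.88), Met to Ly75 (0.88), Tfec to Rps27a-ps3 (0.97) and Tes to Dnajc12, Fnta and Sncg (each 0.77).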

How the data were processed

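RNA of 27 whole fetal brains (3 strains, 3 days, 3 libraries each) was sequenced. Per the labels and the study's methods, the authors trimmed reads, aligned them with STAR to GRCm39 and deposited counts of reads per gene. A second deposited table holds counts of reads per splice junction from which the authors removed multi-mapped and weakly supported junctions. The counting tool, its strand setting and software versions are not given in the sources used here. From the counts, edgeR 4.0.16 in R 4.3.3 (TMM scaling, filterByExpr, quasi-likelihood test, Benjamini-Hochberg over all genes tested, called under 0.05) compared strains on each day, over 3 days with day as a term, and for a difference between days. SE is the log2 fold change divided by the square root of F. Alternatives were other scalings and filters, DESeq2 1.42.0, all 27 libraries in 1 model, a replicate block, d15 and d17 alone, and each library left out. Scripts were tested on simulated data. The named genes are the 10 members, Cav1, Cav2, up to 8 called genes within 10 Mb by size of change, paralogues, the most alike genes, and genes of marker lists. Members and lists were chosen with earlier results of these data known. Positions are from GENCODE vM39, which matched 54749 of 55416 gene IDs. Total counts of 26363697 to 39759702 put the 3-read limit at 0.0755 to 0.114 CPM before TMM scaling; other CPM values are TMM-scaled. Intervals from counts cover counting error only. One of the most alike genes is not reported here.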

Additional observations from a re-analysis of the deposited data

Results flagged for a closer look

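Each of the 5 results below came up because the difference between Cav1-null and AKR/J changed with the gestational day, by a test of that change itself (edgeR, Benjamini-Hochberg over 22705 genes, of which 19.8% were called). Cttnbp2 had an adjusted p of 0.000962, and its log2 fold change was 1.49 on d12 and 0.76 on d15. St7 had an adjusted p of 0.00421, with 0.68 on d12. Capza2 had an adjusted p of 0.0125, with -0.95 on d12 and 0.31 on d15. Tfec had an adjusted p of 0.0314, with -2.25 on d12. Met had an adjusted p of 0.036, with -1.49 on d12. In all 5 the AKR/J d12 libraries enter, whose erythroid genes summed to 34309 to 201667 CPM, and the part of those cells was not tested. The calls of Cttnbp2, St7 and Capza2 held in all 18 fits that left out a library, whereas that of Tfec held in 11 and that of Met in 7. With a replicate block the calls of Capza2 (adjusted p = 0.0671), Tfec (0.0802) and Met (0.0895) were lost, and with all 27 libraries in 1 model those of Tfec (0.0607) and Met (0.0737). Library sizes alone also lost Tfec (0.0976) and Met (0.13).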

How the results depend on the processing

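The number of members called moved by over 1.5 times in these cases. With all 27 libraries in 1 model it was 1 in place of 5 for Cav1-null against C57BL/6J on d15, 1 in place of 2 for Cav1-null against AKR/J on d15, 3 in place of 1 for Cav1-null against AKR/J over 3 days, 5 in place of 3 for AKR/J against C57BL/6J, and 3 in place of 5 for the difference between days. With library sizes alone it was 2 in place of 4 against AKR/J on d12 and 4 in place of 2 against C57BL/6J over 3 days, where RLE scaling gave 1. DESeq2 gave 2 and d15 and d17 alone gave 0 in place of 1 against AKR/J over 3 days. Library sizes alone moved the median of all genes from 0.01 to 0.41 against AKR/J on d12, with 71.4% in place of 50.7% of calls higher in Cav1-null. The same scaling moved the share of higher calls from 45.7% to 59.2% against C57BL/6J on d15, from 43.3% to 56.9% over 3 days, and from 55.5% to 69.5% against AKR/J over 3 days. Deviations of log2(CPM + 1) from group means correlated at -0.42 to 0.37 between same-numbered libraries of different strains on the same day. With 3 libraries per group these values do not settle whether the numbers pair libraries. With the replicate block, 1 member was called against AKR/J on d15, 0 over 3 days and 2 (Cttnbp2 and St7) for the difference between days. Leaving out 1 library gave 4 to 6 members against C57BL/6J on d15, 0 on d12 and d17, and 1 to 4 over 3 days. Against AKR/J it gave 1 to 5 on d12, 0 to 2 on d15, 0 on d17, 1 to 2 over 3 days and 3 to 5 for the difference between days. AKR/J against C57BL/6J gave 3 to 4. Signs turned for St7 between AKR/J and C57BL/6J (-0.15, and 0.11 on d15 and d17 alone). They also turned for Met in that comparison (-0.28 to 0.11 with a library left out) and Foxp2 on d15 against C57BL/6J (-0.03 to 0.15). None of the 3 was called in the fit described or where its sign turned, but Met was called on d15 and d17 alone (-0.76, adjusted p = 0.0261), St7 with all 27 libraries (-0.16, adjusted p = 0.0339) and Foxp2 with library sizes alone (0.24, adjusted p = 0.038). Among member results called in no fit, 34 of 1030 refits also turned sign, with values up to 0.64 in size. Capza2 against AKR/J on d12, not called in the fit described, was called by DESeq2 (adjusted p = 0.00683), with no filter (0.03), with 10 reads (0.0494) and with all 27 libraries (0.00247). Over 3 days against AKR/J, Tfec was called by DESeq2 (-0.91, adjusted p = 0.0403) and with all 27 libraries (-0.88, 0.0271), as was St7 with the latter (0.24, 0.00478). Against C57BL/6J, St7 was called with library sizes alone (0.20, 0.0204) and 10 reads (0.15, 0.0305). Counts over all genes ranged from 0 to 2044 against C57BL/6J on d12 and from 2 to 48 on d17. Against AKR/J, 3906 became 8307 on d12, 3894 became 1586 on d15 and 2516 became 639 on d17 with all 27 libraries, and 4521 became 2726 over 3 days and 4491 became 2589 for the difference between days with the block. The difference between days against C57BL/6J ranged from 0 to 360 genes. Leaving out 1 library gave 0 to 1500 genes against C57BL/6J on d12, 2 to 2865 on d17 and 0 to 1473 for the difference between days, and against AKR/J 1272 to 7370 on d12, 1746 to 4503 on d15, 1376 to 2337 on d17 and 3222 to 8303 for the difference between days. Low counts limit Wnt2, Asz1 and Tfec. The cause of these shifts was not tested.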
